A study of Mus musculus with 19 samples.

Results

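The Obox genes are a family of homeobox genes that lie side by side on mouse chromosome 7. The 6 members described here, Obox1, Obox2, Obox3, Obox5, Obox6 and Obox7, were chosen by name and are 6 of the 25891 genes in the deposited table. Another 26 rows of the table carry an Obox name, most of them pseudogenes, and are given by their level. RNA was sequenced from MII oocytes, which are held at the second meiotic metaphase, and from 2cell embryos, and the labels list 19 libraries, while the methods give quadruplicates of 5 cells. The question was how the transcripts of oocytes and of the embryos made from them differ when the oocyte lacks CPEB3, an RNA-binding protein that controls the poly(A) tail and the translation of stored mRNAs.

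Oocytes and zygotes came from BL6 females 6 to 10 weeks old that were primed with PMSG. The labels give hCG for MII oocytes obtained in vivo and for zygotes, and whether every sequenced MII oocyte was obtained in vivo is not given in the sources used here. The 4 groups were 5 libraries labelled CPEB3+/- MII, 5 labelled CPEB3-/- MII, 5 labelled CPEB3+/- 2cell and 4 labelled CPEB3-/- 2cell. Deletion was conditional. Females called CPEB3-/- carried the floxed allele on both chromosomes together with ZP3-Cre, whose promoter acts in growing oocytes, and the controls were labelled heterozygous, so wild-type oocytes were not analysed here. The study mated knockout females with wild-type males, so CPEB3-/- names the oocyte an embryo came from. Zygotes were cultured in M16 medium and collected as 2cell embryos 37 h after hCG. The labels do not say whether libraries of 1 group came from different females, so the p-values measure the spread between these libraries. In pooled cells, fewer cells that carry a transcript and less of it per cell cannot be told apart.

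Homeobox genes code for transcription factors that bind DNA through the homeodomain, a compact fold whose last helix reads the major groove. Obox genes are known for expression in the germ line and the early embryo. Transcripts of some members are stored in the egg, and transcripts of other members appear with the activation of the embryonic genome at the 2cell stage, in which OBOX proteins take part. Stored mRNAs of the oocyte are degraded in waves during maturation and after fertilization.

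The 6 genes span 1.18 Mb of chromosome 7 (chr7:14659496-15839678 in GRCm38). Obox7 lies at one end (chr7:14659496-14665996, plus strand). Obox2 (chr7:15388721-15398545, plus strand) lies almost wholly inside the annotated span of Obox1 (chr7:15388948-15556866, plus strand), because some annotated Obox1 transcripts start there. Obox3 (chr7:15479825-15639902, minus strand) overlaps the span of Obox1 on the opposite strand. Obox5 (chr7:15750131-15759800, plus strand) and Obox6 (chr7:15833241-15839678, minus strand) lie at the other end.

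How alike the copies are decides how far their reads can be told apart. The following 30 bases of the annotated GENCODE vM21 transcripts come from the stretch that codes for the recognition helix of the homeodomain. Capitals mark bases that differ from Obox1.

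Obox1: tggttcaagaacaaccgagctaagtacagg
Obox2: tggttcaagaacaaccgagctaagtacagg
Obox3: tggttcaagaacaaccgagctaagtacagg
Obox5: tggttcaagaacaaccgagctaagtacagg
Obox6: tggttcaagaacCaccgGgctaagtCcaAg
Obox7: tggttcaagaacaaccgagctaagtacagg

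The window is identical in Obox1 (chr7:15556154-15556183, plus strand), Obox2 (chr7:15397837-15397866, plus strand), Obox3 (chr7:15626293-15626322, minus strand), Obox5 (chr7:15758542-15758571, plus strand) and Obox7 (chr7:14665271-14665300, plus strand). Obox6 (chr7:15833918-15833947, minus strand) differs at 4 of the 30 bases. The annotated coding sequence of Obox2, 453 bases long, holds these bases in another reading frame than the other members do. Over the aligned coding bases, Obox1 and Obox2 were 98.5% identical and Obox5 and Obox7 were 96.0% identical, while Obox6 was 76.6% to 81.1% identical to each of the others. Of the stretches of 50 bases in each gene's transcripts, 94.98% of those of Obox6, 81.9% of those of Obox5, 79.8% of those of Obox3 and 78.9% of those of Obox7 occur in no other annotated gene. Only 42.6% of those of Obox1 and 34.9% of those of Obox2 do, and 56.4% of the Obox1 stretches also occur in Obox2. Values of Obox1 and Obox2 are therefore uncertain as values of separate genes, since the authors' treatment of reads that map to several places is not given in the sources used here. In CPEB3+/- oocytes Obox2 was listed at a mean of 136901 fragments and Obox1, whose span encloses nearly all of it, at 72184, so the fragments of Obox2 were not all counted for Obox1 too.

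The 3′ untranslated regions (3′UTRs) were searched for U-rich motifs listed in the study's methods (there under the name PAS), on the transcript strand, with overlapping matches counted. The letters searched were TTTTAT, then the longer forms TTTTAAAT as well as TTTTAAGT, and the variants TTTTACT as well as TTTTCAT. In the longest annotated 3′UTR of each gene, Obox1 held 2 matches in 518 bases, Obox2 held 2 in 672, Obox3 held 3 in 433, Obox5 held 3 in 803 and Obox7 held 1 in 489. The 3′UTR of Obox6, 236 bases long, held none. At least 1 match was present in 69.3% of the 7420 genes tested in MII oocytes that have a 3′UTR, with a median 3′UTR of 1221 bases. For each of the 5 genes 1 match is shown here, with the motif in capitals, to set the copies side by side.

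Obox1: aggtcttaattTTTTATtgttagagtat
Obox2: aggtcttaattTTTTATtgttagagtat
Obox5: gcctattatttTTTTATtgttagagtat
Obox7: ctattaattttTTTTATtgttagagaat
Obox3: ttattttacttTTTTATtgggtatttat

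These windows lie at chr7:15556800-15556827 in Obox1, chr7:15398479-15398506 in Obox2, chr7:15759202-15759229 in Obox5, chr7:14665932-14665959 in Obox7 and chr7:15625686-15625713 in Obox3. In Obox1, Obox2 and Obox7 the motif starts 54 to 56 bases before the transcript end, just ahead of an AATAAA. In Obox5 the same stretch stands 588 bases before the end, as the annotated 3′UTR runs on past it, and another TTTTAT of Obox5 stands 516 bases before the end. A match is a description of these letters and was not tested as a binding site.

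Levels are given as exon-based FPKM, that is, fragments per M (mega) fragments of the library and per kilobase of exon. They were needed because the deposited FPKM had been divided by the length of the whole gene, introns included, which is 88.4 times the exon length for Obox1 and 4.06 times for Obox7. Whole fragments came out less often with that length for genes with several transcripts, the class of all members but Obox6, than for genes with 1 (66.3% and 88.4% of low values). The rescaling does not change a ratio between libraries. Tests used limma on log2(deposited FPKM + 0.1) with Benjamini-Hochberg adjustment over all genes tested, and a gene was called at an adjusted p under 0.05 and a difference over 1.5-fold. Depth was 17.2 to 23.6 M fragments per library, read from the steps between low values. At that depth a floor of 3 fragments corresponded to 0.0398 to 0.0545 exon-based FPKM for Obox3 and to 0.0944 to 0.129 for Obox6.

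The labels were checked first. The 5 oocyte markers summed to 588.3 to 810.4 FPKM as deposited in CPEB3+/- MII libraries, to 469.6 to 560.3 in CPEB3-/- MII libraries and to 68.4 to 125 in 2cell libraries, and the 5 markers of the 2cell embryo summed to 37.3 to 56.4 and to 357.2 to 467.7. Of the 8 cumulus and granulosa cell markers in the table, none reached 1 FPKM in any library, and their sum was at most 0.676 FPKM. Sperm markers summed to at most 1.26 FPKM. Hba-a1 and the other blood marker in the table summed to 46.2 to 146 FPKM in 2cell libraries and to at most 0.428 in MII libraries, and their part in the stage differences was not tested. Cpeb3 was listed at 0.0450 to 0.101 FPKM as deposited in the libraries labelled CPEB3+/- MII and at 0.131 to 0.215 in those labelled CPEB3-/- MII (log2 fold change 0.53 ± 0.123 SE, adjusted p = 0.0144, limma), so it was not lower in the libraries labelled as knockout. In 2cell libraries its means were 0.0303 FPKM as deposited for CPEB3+/- and 0.0554 for CPEB3-/-, given without a test. These values cover the whole gene, the removed part is not given in the sources used here, and genotypes below are those of the labels. The study itself reported absent Cpeb3 mRNA by PCR and significantly less CPEB3 protein by immunoblot in CPEB3-/- oocytes.

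At the MII stage the family was split into 4 abundant transcripts and 2 that were nearly absent. In the CPEB3+/- oocytes Obox2 had the highest level, with a mean of 3904 ± 1148 (SD, n = 5), followed by Obox1 with 1786 ± 464.2 (SD, n = 5) and Obox5 with 1528 ± 383.9 (SD, n = 5). Obox7 stood at 209.4 ± 69.4 (SD, n = 5). The place of Obox1 rests on the rescaling to exon length, since as deposited it was the lowest of the 4, with a mean of 20.2 FPKM against 51.6 for Obox7. The ranges of Obox1 and Obox5 overlapped, while that of Obox2 lay above both and that of Obox7 below both. Obox6 and Obox3 came last, at 0.189 ± 0.164 and 0.136 ± 0.0863 (SD, n = 5), which is 0 to 12 fragments of Obox6 and 3.81 to 16.5 fragments of Obox3 per library, and their ranges overlapped.

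**Figure D1:**
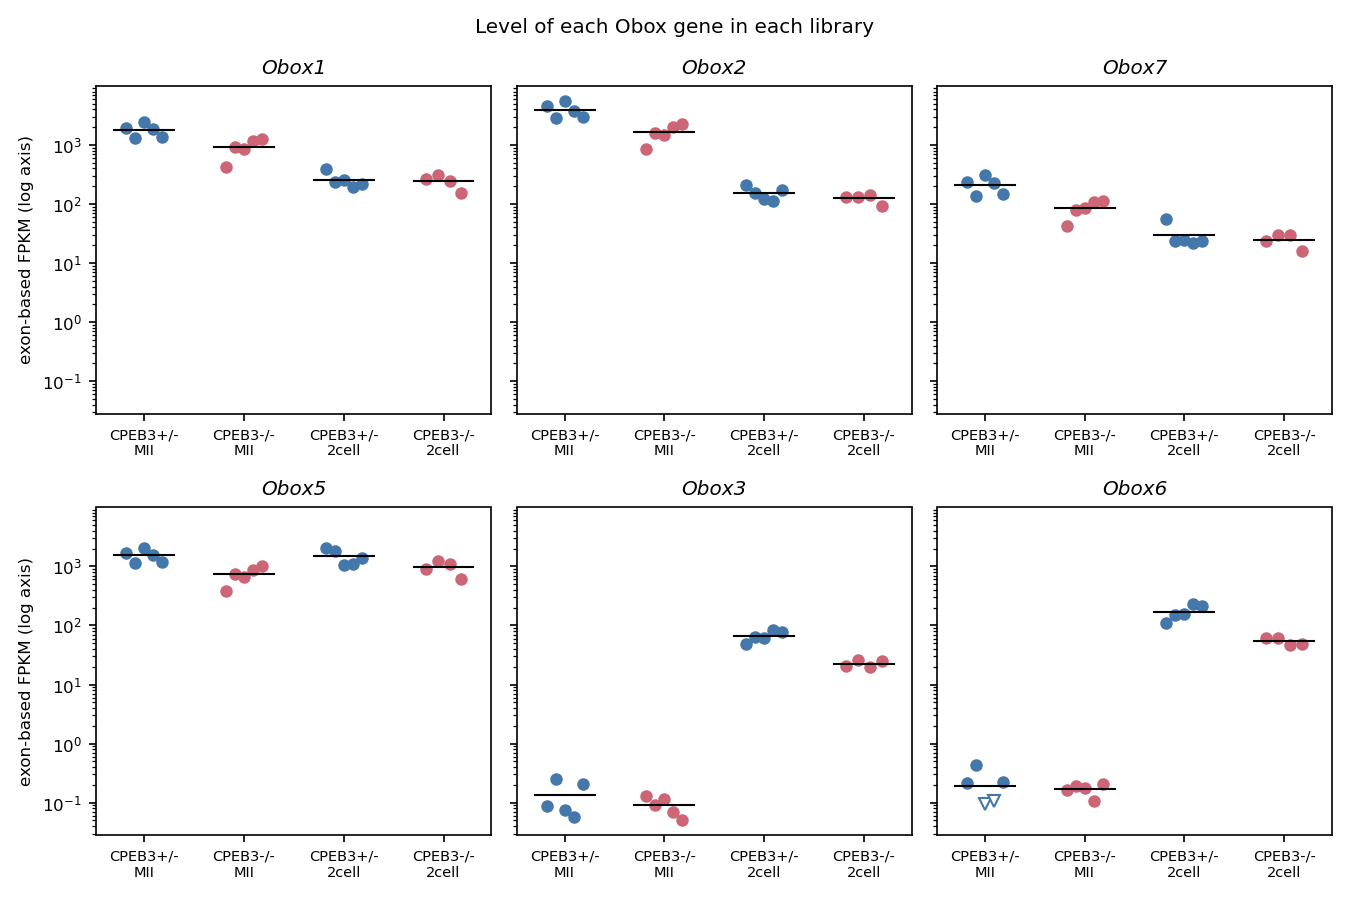
Exon-based FPKM (log axis) of each Obox gene in each of the 19 libraries, with 1 point per library, blue for CPEB3+/- and red for CPEB3-/-, and the group mean as a line. Open triangles are values under 3 fragments, drawn at that floor. Obox1, Obox2, Obox5 and Obox7 are lower in every CPEB3-/- MII library than in every CPEB3+/- one, and Obox3 and Obox6 are high in 2cell embryos, where the CPEB3-/- libraries are lower.

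The abundant maternal transcripts were lower in MII oocytes of the CPEB3-/- label. All 4 members tested were called lower (Obox1, Obox2, Obox5 and Obox7), where 7.29% of all genes tested were called lower, or 5.62% with no scaling of the libraries. Obox3 and Obox6 lay below the filter of 0.1 FPKM in 5 libraries in both genotypes and were not tested at this stage. None of the 4 had overlapping genotypes, where 7.57% of all genes tested were lower in CPEB3-/- oocytes without overlap. These members may share reads and may then not be 4 separate observations. The summed oocyte markers were lower in the same libraries without overlap (given above), but of the 5 markers only Mos was called, at 213.8 ± 47.8 FPKM as deposited in CPEB3+/- oocytes and 67.5 ± 12.3 in CPEB3-/- oocytes (SD, n = 5 each). The log2 fold changes of the other 4, none of them called, were -0.31 for Bmp15, -0.24 for Gdf9, 0.05 for Nlrp5 and 0.25 for Zp3 (limma). The part of these markers in the result was not tested.

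Obox2 was at 4499, 2796, 5549, 3753 and 2922 exon-based FPKM in CPEB3+/- MII libraries A to E, and at 841, 1598, 1457, 1968 and 2241 in CPEB3-/- MII libraries A to E. Every CPEB3-/- library lay below every CPEB3+/- library, with library A lowest among the former and library C highest among the latter. It fell by 1.39 on the log2 scale (± 0.315 SE, adjusted p = 0.0131, limma), or 2.63-fold. Obox1, the most similar copy, was at 1942, 1303, 2444, 1861 and 1380 against 426, 913, 855, 1142 and 1248. The genotypes did not overlap, although the highest CPEB3-/- library came close to the lowest CPEB3+/- library. Obox1 fell by 1.10 on the log2 scale (± 0.319 SE, adjusted p = 0.0338, limma).

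Obox5, abundant in both stages, was at 1658, 1122, 2072, 1587 and 1199 in CPEB3+/- MII libraries and at 377, 735, 663, 878 and 1024 in CPEB3-/- ones. Its libraries followed the same order as those of Obox2 in both genotypes, and the genotypes did not overlap. It fell by 1.19 on the log2 scale (± 0.302 SE, adjusted p = 0.0207, limma). Obox7, the copy at the far end of the cluster, was at 234, 135, 303, 229 and 146 against 41.8, 80.4, 83.9, 108 and 112. These libraries did not overlap either. Obox7 fell by 1.41 on the log2 scale (± 0.337 SE, adjusted p = 0.0167, limma).

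Single libraries mattered for these calls. Obox1 was no longer called when CPEB3+/- MII library A, C or D or CPEB3-/- MII library B or C was left out (adjusted p between 0.0616 and 0.0830, limma). Obox5 was no longer called without CPEB3+/- MII library A or C (adjusted p = 0.0518 and 0.0516, limma), while Obox2 and Obox7 kept their calls in each of the 10 fits without 1 library. With no filter on low values Obox1 and Obox5 were not called (adjusted p = 0.0757 and 0.0510, limma). With the replicate letter fitted as a block none of the 4 was called (adjusted p from 0.0546 for Obox7 to 0.0847 for Obox1, limma). The letters were not treated as pairs in the main fit.

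Within MII libraries the proportions of the abundant members varied less than their levels. Obox5 stood at 0.395 ± 0.0236 of Obox2 in CPEB3+/- libraries (SD, n = 5) and at 0.453 ± 0.00577 in CPEB3-/- libraries (SD, n = 5), although Obox2 itself varied from 841 to 2241 in the latter. Obox1 stood at 0.461 ± 0.0257 and 0.560 ± 0.0323 of Obox2 (SD, n = 5 each). Neither proportion overlapped between the genotypes, both being higher in CPEB3-/- oocytes. Obox7 stood at 0.0532 ± 0.00491 and 0.0525 ± 0.00353 of Obox2 (SD, n = 5 each), with overlap. In 2cell embryos these proportions were different, with Obox5 at 9.56 ± 1.45 times Obox2 in CPEB3+/- libraries (SD, n = 5) and 7.66 ± 1.32 times in CPEB3-/- libraries (SD, n = 4). Obox1 stood at 1.69 ± 0.309 times Obox2 and Obox7 at 0.190 ± 0.0510 of it in CPEB3+/- embryos (SD, n = 5 each). In CPEB3-/- embryos Obox7 stood at 0.199 ± 0.0258 of Obox2 (SD, n = 4), with overlap. The part of shared reads in these proportions was not tested.

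In 2cell embryos the order of the family was another one. In CPEB3+/- embryos Obox5 led with 1471 ± 434.8 (SD, n = 5). Obox1 at 257.0 ± 74.1, Obox6 at 171.7 ± 48.7 and Obox2 at 153.8 ± 39.2 followed with overlapping ranges (SD, n = 5 each). The place of Obox1 again rests on the rescaling, since as deposited its mean of 2.91 FPKM lay below those of Obox6 (35.8), Obox2 (25.8) and Obox7 (7.34). Obox3 at 66.8 ± 14.2 and Obox7 at 29.8 ± 14.7 came last (SD, n = 5 each), and their ranges overlapped only through library A of Obox7 at 56.0, the other 4 lying between 21.8 and 24.7. The order of Obox3 and Obox7 rests on the rescaling too, since as deposited Obox3 had a mean of 1.33 FPKM, below that of Obox7. In CPEB3-/- embryos the order was Obox5 at 961.3 ± 276.3, Obox1 at 244.0 ± 68.2, Obox2 at 124.2 ± 23.0, Obox6 at 54.6 ± 7.68, Obox7 at 25.0 ± 6.70 and Obox3 at 22.7 ± 2.93 (SD, n = 4 each). Obox6 thus stood below every library of Obox2 there, and the ranges of Obox7 and Obox3 overlapped.

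Against CPEB3+/- embryos, 2 of the 6 members, Obox3 and Obox6, were called lower, where 9.44% of all genes tested were called lower. None was called higher, as 8.64% of all genes tested were. These 2 were also the members without overlap between the genotypes, where 9.56% of all genes tested were lower in CPEB3-/- embryos without overlap.

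Obox6, the most divergent member in sequence and the one with the fewest shared stretches, was at 112, 147, 157, 230.4 and 212 exon-based FPKM in CPEB3+/- 2cell libraries A to E and at 61.8, 60.8, 47.4 and 48.6 in CPEB3-/- 2cell libraries A to D. All CPEB3-/- libraries lay below the lowest CPEB3+/- library and close to each other. Obox6 fell by 1.65 on the log2 scale (± 0.197 SE, adjusted p = 0.00146, limma), or 3.13-fold. Obox3, which lies on the same strand and has 8 pseudogene rows in the table, was at 47.6, 64.7, 60.9, 84.6 and 76.0 against 20.6, 25.7, 19.7 and 24.6. The genotypes did not overlap here either. Obox3 fell by 1.39 on the log2 scale (± 0.176 SE, adjusted p = 0.00170, limma), or 2.62-fold. With a pseudocount of 1 in place of 0.1 it fell by 0.69, and with voom on recovered fragments by 1.64, the smallest and the largest value over the alternatives run, and it was called in each. Both kept their calls in each of the 9 fits without 1 library. The ratio of Obox6 to Obox3 was 2.54 ± 0.225 in CPEB3+/- embryos (SD, n = 5) and 2.44 ± 0.421 in CPEB3-/- embryos (SD, n = 4).

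**Figure D2:**
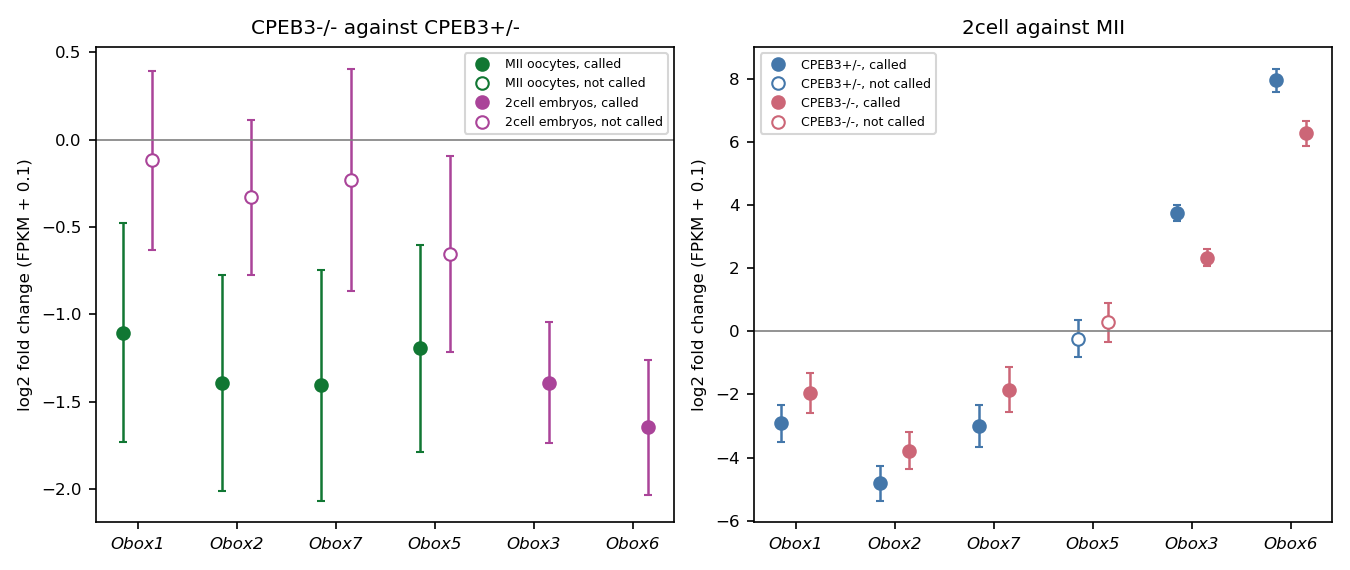
Log2 fold changes on the log2(FPKM + 0.1) scale with approximate 95% intervals, not adjusted for the number of genes, for CPEB3-/- against CPEB3+/- libraries in each stage (left) and for 2cell against MII libraries in each genotype (right). The intervals are a normal approximation from limma's SE and are narrower than intervals from limma's own test would be. Filled points are called, open points are not. Obox1, Obox2, Obox7 and Obox5 are called lower at the MII stage, Obox3 and Obox6 at the 2cell stage, and Obox5 is the one member not called between the stages.

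The members abundant in oocytes did not pass the test in 2cell embryos. Obox5 was at 2009, 1839, 1064, 1079 and 1363 in CPEB3+/- embryos and at 911, 1240, 1095 and 599 in CPEB3-/- embryos, and the genotypes overlapped. Its log2 fold change was -0.65 (approximate 95% interval -1.21 to -0.10 before adjustment, adjusted p = 0.137, limma). A fit of limma's voom on recovered fragments, which were not rounded to whole numbers, called it lower (adjusted p = 0.0303). The log2 fold change was -0.33 for Obox2 (approximate 95% interval -0.78 to 0.11), -0.23 for Obox7 (-0.87 to 0.41) and -0.12 for Obox1 (-0.63 to 0.39), with adjusted p = 0.336, 0.656 and 0.792 (limma).

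Some other Obox rows were called lower in the same comparison. Of the 26 rows, 21 were tested in 2cell embryos, of which 10 were called lower, none higher and 11 not, where 9.44% of all genes tested were called lower. Obox8, the other protein-coding row, was at 94.5, 123, 120.2, 175 and 156 exon-based FPKM in CPEB3+/- embryos and at 69.8, 34.0, 37.0 and 60.8 in CPEB3-/- embryos, without overlap (log2 fold change -1.48 ± 0.237 SE, adjusted p = 0.00411, limma). Among the pseudogenes Obox3-ps5 had the highest level, 525.6 ± 172.4 in CPEB3+/- embryos (SD, n = 5) against 174.3 ± 38.6 in CPEB3-/- embryos (SD, n = 4). This was above the level of Obox3 itself, and 8.44% of the 50-base stretches of Obox3 also occur in Obox3-ps5. Of the 8 Obox3 pseudogenes, 7 were called lower and Obox3-ps7 was not. Of 11 Obox4 pseudogenes tested, 1 was called, Obox4-ps35, which was lower, and their median log2 fold change was 0.54. In MII oocytes 8 of the 26 rows were tested and 2 were called lower, none higher, where 7.29% of all genes tested were called lower. These were Obox3-ps1 (-1.05, adjusted p = 0.0227, limma) and Obox3-ps6 (-1.02, adjusted p = 0.0261). Both rested on few fragments (means of 11.3 and 12.8 in CPEB3+/- oocytes), so nothing is read from this count.

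**Figure D3:**
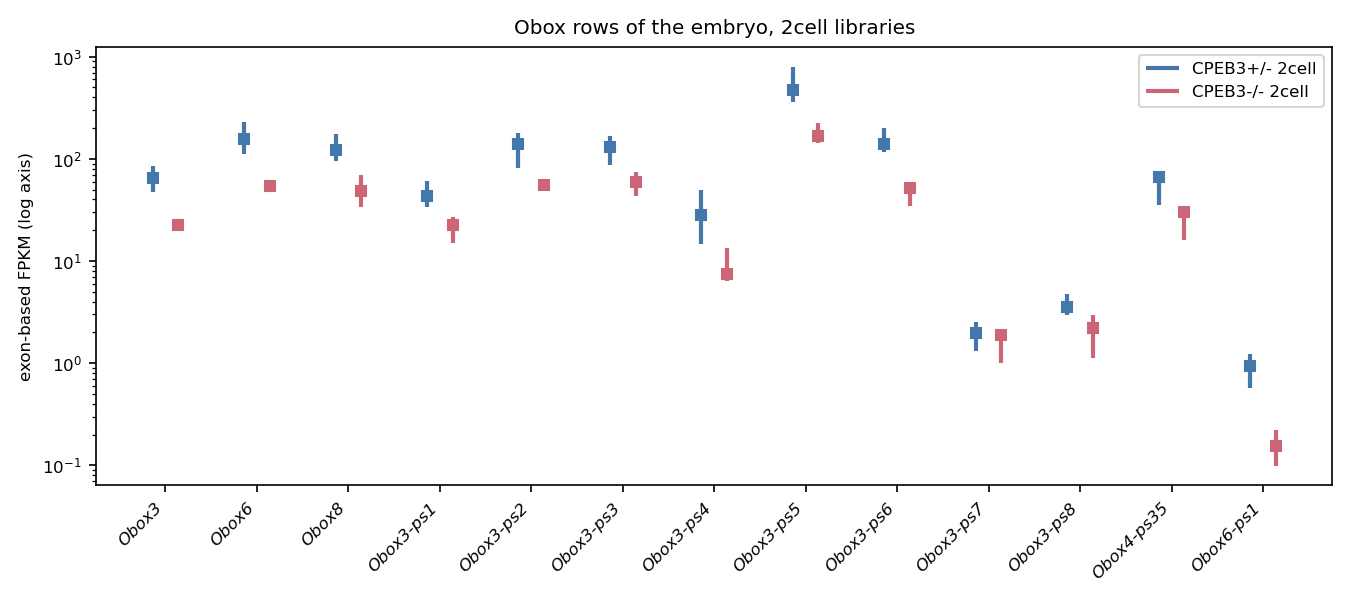
Median (square) and range (bar) of the exon-based FPKM (log axis) of Obox3, Obox6 and other Obox rows in 2cell libraries, blue for the 5 CPEB3+/- and red for the 4 CPEB3-/- libraries. Obox3-ps5 has the highest level, and every row shown but Obox3-ps7 is called lower in CPEB3-/- embryos. Of the 11 Obox4 pseudogenes tested only Obox4-ps35 is drawn, and the 10 left out were not called.

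Between the stages Obox1, Obox2 and Obox7 fell and Obox5 was not called, in both genotypes. Of the 6 members tested, these 3 were called lower in each genotype, where 27% of all genes tested were called lower in CPEB3+/- and 26.5% in CPEB3-/- libraries. In CPEB3+/- libraries Obox2 fell by 4.81 on the log2 scale (± 0.285 SE), Obox7 fell by 2.99 (± 0.338 SE) and Obox1 fell by 2.92 (± 0.301 SE). In CPEB3-/- libraries Obox2 fell by 3.78 (± 0.302 SE), Obox1 fell by 1.95 (± 0.319 SE) and Obox7 fell by 1.85 (± 0.359 SE). The adjusted p was at most 0.000158 for each of these (limma).

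Obox3 and Obox6 rested on few fragments before fertilization and on many after it. Obox6 had 0 to 12 fragments in CPEB3+/- oocytes and 2776 to 6109 in CPEB3+/- embryos, and 3 to 6 fragments in CPEB3-/- oocytes and 1099 to 1573 in CPEB3-/- embryos. Obox3 had 3.81 to 16.5 and 2807 to 5324 fragments in CPEB3+/- libraries, and 3.53 to 9.61 and 1087 to 1523 in CPEB3-/- libraries. Both were called higher in both genotypes, as were 39.2% of all genes tested in CPEB3+/- and 38.4% in CPEB3-/- libraries. Both passed the filter in that fit only through the 2cell libraries, so they had to differ and nothing is read from these 2 calls. The fitted log2 fold changes, 7.95 and 6.28 for Obox6 and 3.75 and 2.33 for Obox3 in CPEB3+/- and CPEB3-/- libraries, are set by the pseudocount of 0.1 FPKM at this low level.

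Obox5 was the member without a called change between the stages, with a log2 fold change of -0.23 (approximate 95% interval -0.82 to 0.36, adjusted p = 0.501, limma) in CPEB3+/- and 0.28 (-0.34 to 0.91, adjusted p = 0.438, limma) in CPEB3-/- libraries. The interval does not show that its level stayed the same.

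Whether the genotype difference itself differed between the stages was tested as the interaction of stage and genotype. It was called for 2 of the 6 members, where 8.1% of all genes tested were called, and both were negative, as for 4.84%. Nothing is read from that count, since both genes entered the fit only through the 2cell libraries. For Obox6 the stage change was smaller in CPEB3-/- libraries by 1.67 on the log2 scale (-1.67 ± 0.278 SE, adjusted p = 0.00139, limma) and for Obox3 by 1.42 (-1.42 ± 0.187 SE, adjusted p = 0.000207, limma). Both genes were near 0 in MII oocytes of either genotype, so this contrast restates their difference in embryos, and voom on the recovered fragments called it for none of the 6. For Obox7 (1.15 ± 0.493 SE, adjusted p = 0.169), Obox2 (1.03 ± 0.416 SE, adjusted p = 0.140), Obox1 (0.96 ± 0.439 SE, adjusted p = 0.197) and Obox5 (0.51 ± 0.438 SE, adjusted p = 0.531) the contrast was not called (limma), so a difference between the stages in their genotype effect was not shown.

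Summed over the 32 Obox rows, the family took 13427 ± 3687 fragments per M fragments in CPEB3+/- oocytes (SD, n = 5) and 6123 ± 2047 in CPEB3-/- oocytes (SD, n = 5). A sum depends less on how reads are divided among the copies within it, although a read counted for more than 1 copy enters it more than once. The 5 CPEB3+/- libraries lay between 9700 and 18696 and the 5 CPEB3-/- libraries between 3068 and 8432, without overlap. In embryos the family took 5598 ± 805.4 (SD, n = 5) and 3369 ± 797.9 (SD, n = 4), between 4599 and 6657 against 2286 and 4190, again without overlap. Obox1, Obox2 and Obox7 together made up 10155 of the 13427 in CPEB3+/- oocytes and 789.2 of the 5598 in CPEB3+/- embryos. Obox3, Obox6, Obox8 and the Obox3 pseudogenes together went from 8.67 ± 1.36 to 1619 ± 411.1 per M fragments in CPEB3+/- libraries (SD, n = 5 each) and from 6.33 ± 1.30 (SD, n = 5) to 575.9 ± 75.9 (SD, n = 4) in CPEB3-/- libraries. These sums are given without a test.

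**Figure D4:**
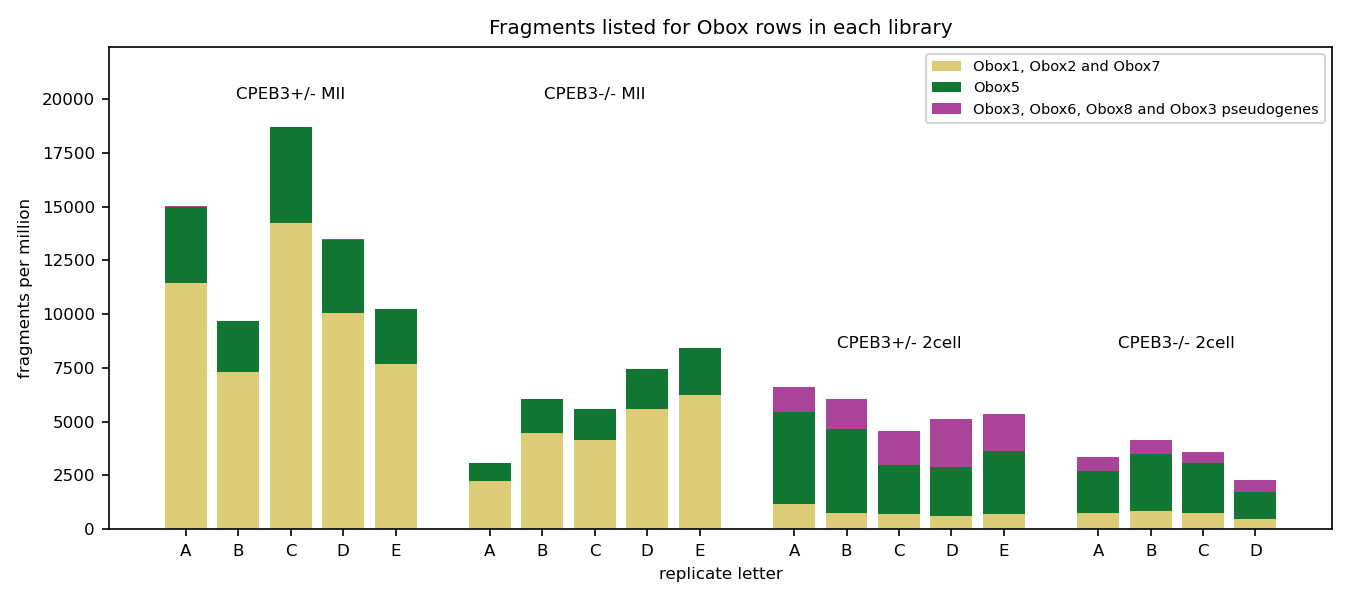
Fragments per M fragments listed for Obox rows in each of the 19 libraries, stacked as Obox1, Obox2 and Obox7 (yellow), Obox5 (green) and Obox3, Obox6, Obox8 and the Obox3 pseudogenes (purple). The sum is highest in CPEB3+/- MII libraries, lower in every CPEB3-/- library of the same stage, and in embryos Obox5 is the largest part.

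The libraries were next searched for genes whose pattern is most like that of Obox1, Obox2, Obox5 and Obox7, over the 19 libraries after the mean of each stage was removed (9334 genes compared). These correlations are descriptions over libraries that share depth and treatment, and the part of reads shared between members was not tested. The genotype difference was not removed, so it is part of each correlation. For Obox5 the highest Pearson r were those of Orc5 (0.979), Gm2042 (0.972), Gm13023 (0.966), Nuf2 (0.963) and Obox2 (0.960). For Obox2 they were Obox7 (0.962), Obox5 (0.960), Obox1 (0.954), Oog1 (0.951) and Oosp3 (0.950). For Obox1 and Obox7 the highest r was with each other (0.977), and E330021D16Rik, Neil3, AC113125.1 and Obox2 completed both lists of 5 (r between 0.954 and 0.971).

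Genes around the cluster and genes of like roles were counted for comparison, from lists chosen by role or position. Over all genes tested, 5.56% were called higher (7.48% with no scaling) and 7.29% lower in MII oocytes, and 8.64% higher and 9.44% lower in 2cell embryos. Of 25 neighbours within 500 kb that carry no Obox name, 8 were tested in MII oocytes and none was called lower, while Nop53 was called higher (log2 fold change 0.81, adjusted p = 0.010, limma). Selenow (-0.33, adjusted p = 0.0217) stayed under 1.5-fold there, and Mrip-ps (0.50, adjusted p = 0.0611) did not pass. In 2cell embryos 13 were tested, again with none called lower, and Ccdc9 (1.14, adjusted p = 0.0134) and Mrip-ps (0.64, adjusted p = 0.0257) were called higher. The neighbour nearest in kind, Crxos, a homeobox gene of the embryo, had a log2 fold change of -0.57 in embryos (adjusted p = 0.0497, limma), under 1.5-fold. The median log2 fold change of the tested neighbours was -0.05 in oocytes and 0.12 in embryos, beside 0.01 and 0.00 over all genes tested.

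Of 18 factors that take part in activating the embryonic genome, 15 were tested in 2cell embryos, of which 4 were called lower (9.44% of all genes tested were) and 2 higher (8.64%). Gabpa, an ETS-family factor, was called lower (log2 fold change -1.67, adjusted p = 0.00116, limma) and so was Nfyb, a subunit of the CCAAT-binding factor NF-Y (-1.12, adjusted p = 0.00798), while Yap1, a coactivator of TEAD factors, was called higher (0.87, adjusted p = 0.00475). The others called, named after their values were seen, were Dppa4 (-0.88, adjusted p = 0.0193) and Nr5a2 (-0.67, adjusted p = 0.0341), which were lower, and Klf17 (0.93, adjusted p = 0.00872), which was higher. In oocytes 9 were tested and 2 called, where 7.29% of all genes tested were called lower and 5.56% higher, with Tfap2c, an AP-2 factor, lower (-1.41, adjusted p = 0.00177) and Smarca4, the ATPase of a chromatin remodeller, higher (0.60, adjusted p = 0.0168). Klf17 did not pass there (0.39, adjusted p = 0.102). The median of the list was -0.06 in oocytes and -0.01 in embryos.

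Of 19 genes transcribed at the 2cell stage, all were tested in embryos, and 1 was called, Zscan4d, which was lower (-1.01, adjusted p = 0.0431, limma). Tdpoz4 (-0.92, adjusted p = 0.0577) and Usp17lc (0.69, adjusted p = 0.0684) did not pass. The median of the list was -0.47. In oocytes 9 of them were tested and 4 were called higher, where 5.56% of all genes tested were, among them Zscan4d (2.89, adjusted p = 9.13e-05), Zscan4c (2.24, adjusted p = 0.000989) and Usp17le (1.04, adjusted p = 0.00400), and the median was 1.04. The other called higher, named after its value was seen, was Zscan4f (1.63, adjusted p = 0.00528). Zscan4 copies are near-identical too, so their single values are uncertain.

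Of 20 oocyte and maternal-effect transcripts, all were tested at both stages. In oocytes 2 were called lower and 1 higher. Mos, the kinase that keeps the egg in metaphase, was lower (-1.75, adjusted p = 0.000155, limma), and so was Dppa3, named after its value was seen (-0.66, adjusted p = 0.0207). In the same oocytes Khdc3 of the subcortical maternal complex was higher (0.63, adjusted p = 0.0195), and Padi6 (0.56, adjusted p = 0.00606) stayed under 1.5-fold. In embryos Ooep, of the same complex, was higher (0.91, adjusted p = 0.00173), and Gdf9 (0.56, adjusted p = 0.0132) and Zar1 (0.48, adjusted p = 0.0406) stayed under 1.5-fold. The median of the list was 0.09 in oocytes and 0.22 in embryos.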

How the data were processed

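The 19 labelled libraries were used, and 0 columns of values were left out. According to the methods and the submitters' processing notes, the authors trimmed reads with Trim Galore 0.4.1, mapped them to GRCm38 with HISAT2 2.0.5 and computed the deposited FPKM in SeqMonk. Of low values of spliced genes with 1 transcript, 88.4% came out as whole fragments (to within 0.05) for the length of the whole gene and 9.90% for the exon length (10% by chance). With several transcripts it was 66.3% for the length of the whole gene. Thus exon-based FPKM are the deposited FPKM times gene length over exon length (union of GENCODE vM21 exons). The median depth was 19.8 M fragments, and depth and floors cover counting error only. Values above 0 but below 1e-06 FPKM, which whole fragments cannot give, made up 1.07%. Scaling factors between libraries trimmed 30% of log ratios and 5% of levels on each side, and log2(FPKM + 0.1) was fitted with limma 3.58.1 (R 4.3.3) with a variance trend. This scale understates changes of low genes. Genes with 0.1 FPKM in 5 MII or 4 2cell libraries, or in 4 of 19 libraries for stage and interaction, were tested. On simulated data 99% and 89% of 200 changed genes (4-fold) were recovered for MII oocytes and 2cell embryos, with 7 and 11 false calls. The changed genes were drawn from the more abundant ones, so these rates do not describe smaller changes or low genes. Same-letter libraries correlated by over 0.1 in 3 of 27 pairs, so letters were not treated as pairs. Identity was computed on coding sequences. Members and lists were chosen with earlier results of these data known. Genes named are the 6 members, other Obox rows by level, and from each list the 3 with the smallest adjusted p per genotype comparison. Cpeb3, some cell markers and the 5 genes nearest in pattern to each abundant member are named too. Other called genes of a list are marked as named after their values were seen. Python 3.11.15, numpy 2.4.6, pandas 2.3.3 and matplotlib 3.10.9 were used.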

Additional observations from a re-analysis of the deposited data

Results flagged for a closer look

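Obox7 in CPEB3+/- 2cell library A, at 13.8 FPKM as deposited, stood apart from the other 4 libraries of its group, which lay between 5.37 and 6.09. It was 1 of 24 groups examined for a sample apart, of which chance flags about 1 in 20. The stage effect of 2 genes differed between the genotypes by the interaction test in limma, with a log2 difference of -1.42 for Obox3 (adjusted p = 0.000207) and -1.67 for Obox6 (adjusted p = 0.00139). Both were near 0 in MII oocytes of either genotype and entered the fit only through the 2cell libraries, so the contrast repeats their difference in embryos. With voom on recovered fragments neither was called (adjusted p = 0.364 for Obox3 and 0.211 for Obox6).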

How the results depend on the processing

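Calls of the members were counted under other scalings, pseudocounts and filters, and with each library left out, and 2 alternatives were chosen after seeing the data (exon-based FPKM, and voom on recovered fragments). In MII oocytes the 4 called members became 2 with no filter on low values and 0 with the replicate block, where adjusted p ranged from 0.0546 (Obox7) to 0.0847 (Obox1) and 822 genes in all were called. They were 2 to 4 when 1 library was left out. The block took the interaction from 1278 to 879 genes and left its 2 members called. In 2cell embryos the block lowered the calls over all genes from 2540 to 399 and left Obox3 and Obox6 called (adjusted p = 0.0403 for each). Obox3 between the stages in CPEB3-/- libraries stayed under 1.5-fold with a pseudocount of 1 (log2 fold change 0.50). In the interaction voom called 0 members and 727 genes.

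Over all genes in MII oocytes, 1352 calls became 480 with a pseudocount of 1, 777 with a filter of 1 FPKM, 2123 per kilobase of exon and 2269 with voom. In 2cell embryos they became 1165 and 1496 with the pseudocount and filter of 1. Between the stages they became 5264 and 5267 in CPEB3+/- and 5226 and 5134 in CPEB3-/- libraries, and for the interaction 833 and 765. With no scaling the MII calls were 786 higher and 591 lower in place of 585 and 767. Quantile scaling moved the median stage change of all genes from 0.25 to -0.24 in CPEB3+/- libraries, and turned the split from 6193 higher and 4262 lower to 4404 and 6243. No called change of a member turned its direction under these alternatives. In 2cell embryos the values of Obox1 and Obox7, which were not called, turned positive with the GC trend removed (0.110 and 0.0291). With 1 library left out they ranged from -0.265 to 0.0825 for Obox1 and from -0.348 to 0.0459 for Obox7, turning positive without CPEB3+/- library A and, for Obox1, also without CPEB3-/- library D. Of the other alternative values of single members, 562 kept their direction and side of the threshold, 16 lost the call and 1 gained it. Depth limits Obox3 and Obox6 in oocytes, which rest on few fragments.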
